A study of Rattus norvegicus with 6 samples.

Results

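Solute carriers are the membrane proteins that move sugars, amino acids, organic acids, nucleosides, metals and ions into, out of and within cells. The genes described here are those whose annotated symbol begins with Slc and a digit, where the probe set names a single gene. The families Slc1, Slc4, Slc6, Slc11, Slc12, Slc18 and Slc32 and the choline carrier gene Slc5a7, most of which serve transmitter uptake, vesicle filling, chloride and bicarbonate balance or iron uptake, were left out by the same rule. This gave 86 genes in 30 families, out of 4736 named genes, read by 122 of the array's 8740 probe sets that are not controls. Expression was measured in total RNA of rat spinal cord at about thoracic segment 8, on 1 array per sample. According to the labels, 3 samples are contused cord (injured by a blunt blow) at the epicenter 35 days later, and 3 are uninjured cord. Strain, sex, age and injury device are not given in the sources used here, and no sham operation is named for the uninjured group. Surgery, elapsed time and contusion cannot be told apart here.

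The cord burns glucose that enters through Slc2 carriers of the blood-brain barrier, and glia pass lactate to axons through Slc16 carriers. Heavy and light chains of the Slc3 and Slc7 families form the main exchangers of large amino acids. Most members of the Slc25 family sit in the inner mitochondrial membrane, where they exchange nucleotides, phosphate, citrate and other metabolites. Slc8 and Slc24 proteins extrude calcium in exchange for sodium, and Slc30 and Slc40 proteins carry zinc and iron.

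The arrays were alike in depth, with median signals of 122 to 127 and 73.1% to 76% of probe sets above the floor, a signal of 61.6 under which values were not ranked. All lists of cell type markers were read at the brightest tested probe set of each gene. Neuron markers were lower in 7 of 7 tested genes, and their summed signal was 6508 to 6949.5 on the contused arrays against 13201 to 15462 on the uninjured arrays; Syt1 lay at or under the floor on every array. Markers of microglia and macrophages were higher in 6 of 7 genes, with sums of 4966 to 5349.9 against 1061 to 1354. Oligodendrocyte and myelin markers were lower in 3 of 6 (Gjb1, Mobp and Mog; sums of 11879 to 13252 against 13925 to 15279.7). Of 6 dimmer tested probe sets of these markers, 5 were lower and 1 did not pass. The lower ones include 1 of Mag (log2 change -0.36, limma adjusted p = 0.0473), whose brightest probe set did not pass. Astrocyte markers were higher in 1 of 7 (Gja1; 7448 to 8544 against 7314 to 8078). Meningeal and fibroblast markers were higher in 4 of 7 (Col1a1, Col1a2, Col3a1 and Ptgds; 11041 to 13249 against 5216 to 9211). None of 6 endothelial, 3 Schwann cell and 2 red blood cell markers passed, although the summed endothelial signal was 746 to 807 after contusion and 842 to 915 in uninjured cord, and the Schwann cell sum 3604 to 4709 against 2933 to 3209. Red blood cell sums were 1831 to 2696 against 2447 to 3396. In such bulk tissue, fewer cells of a type and less RNA per cell cannot be told apart.

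As a class the metabolite, nutrient and ion carriers changed modestly after contusion, in no preferred direction. Of 102 probe sets bright enough to be tested (77 genes), 5 were higher and 10 lower in limma at an adjusted p of 0.05, which is 14.7% of them. Over all 6705 probe sets tested the share was 17.4%, with 7.79% higher and 9.59% lower, so the carriers' share lies near the background. The median log2 change over the tested carriers was 0.06, against -0.01 over all probe sets. No carrier that passed changed by 2-fold or more, while 294 probe sets of the whole array did. Another 13 carrier probe sets had an unadjusted p under 0.05 without passing the adjustment. On 34 of the 102 (33.3%) the 3 contused arrays lay wholly above or below the 3 uninjured arrays, and over all probe sets tested this held for 34.8%. On 19 carrier probe sets the contused arrays lay above (16.6% of all probe sets tested did) and on 15 below (18.2%). Among the 59 probe sets of the Slc families left out, 3 of 47 tested were higher and 7 lower (21.3%). The counts depended on single arrays. They were 2 higher and 5 lower without contused array 1, 2 and 4 without contused array 2, and 6 and 10 without contused array 3. They were 2 and 7 without uninjured array 1, 6 and 5 without uninjured array 2, and 2 and 2 without uninjured array 3. Counts over all probe sets moved too. From 522 higher and 643 lower they went to 295 and 428 without contused array 2, and to 276 and 383 without uninjured array 3. Without contused array 3 they were 484 and 776.

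**Figure D1:**
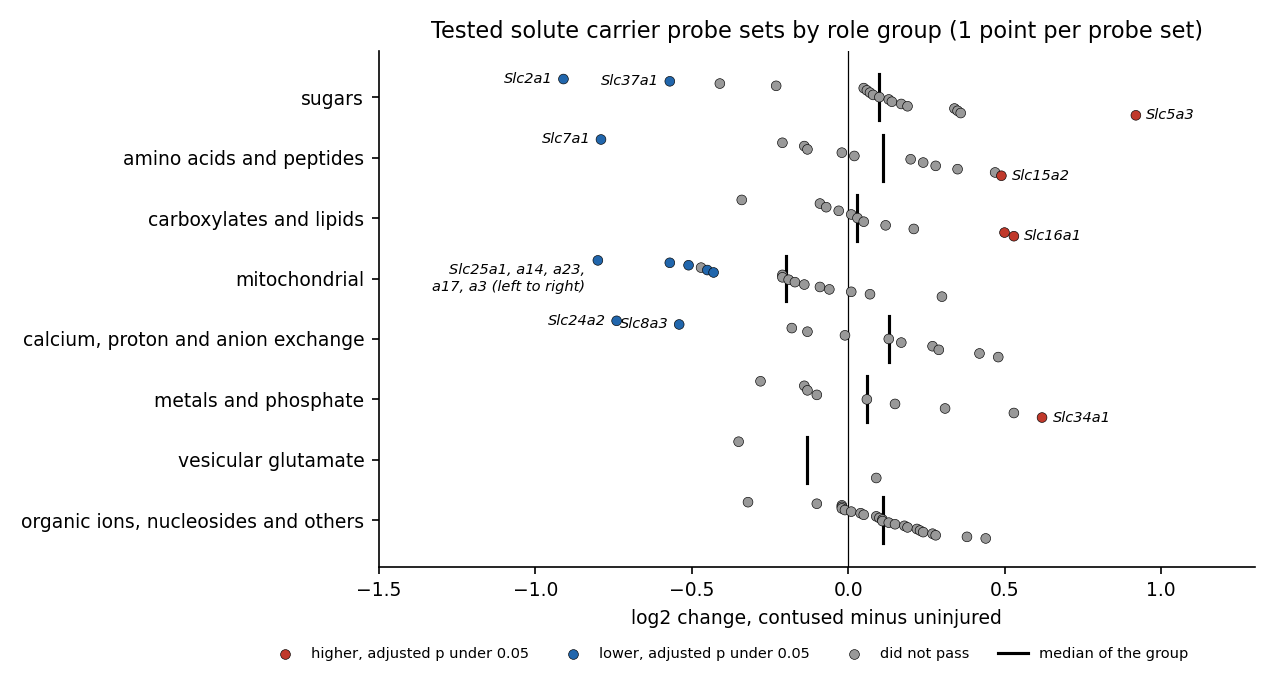
Log2 change (contused minus uninjured) of the 102 tested solute carrier probe sets, 1 point per probe set, in 8 role groups, with the median of each group as a black bar. Red and blue points passed an adjusted p of 0.05; the 5 red and 10 blue points lie among 87 grey points, and all fall within 0.92 of 0.

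**Figure D2:**
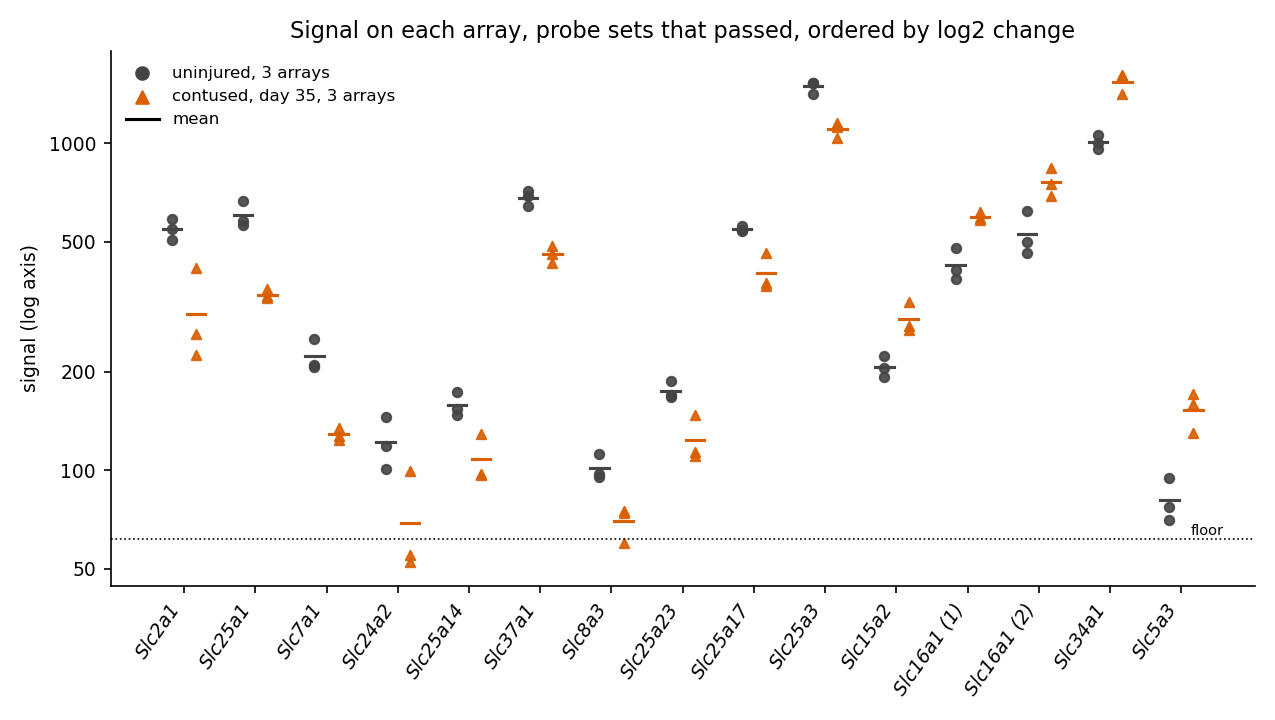
Signal (log axis) of the 15 probe sets that passed on each of the 3 uninjured (circles) and 3 contused (triangles) arrays, with group means as bars and the floor of 61.6 as a dotted line. For each of them the contused arrays lie wholly on 1 side of the uninjured arrays, although contused array 3 comes close to the uninjured range for Slc24a2.

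Of 17 tested probe sets (11 genes) in the sugar carrier families Slc2, Slc5 and Slc37, 1 was higher and 2 lower. This is 17.6%, near the 17.4% over all probe sets tested. The largest rise of all carriers was that of Slc5a3, which encodes the sodium-coupled carrier of myo-inositol, an organic osmolyte. Its signal was 129.9, 159 and 171 on the contused arrays and 77.5, 95 and 70.7 on the uninjured arrays. All contused values lay above all uninjured ones, by a mean of 1.89-fold (log2 change 0.92, SE 0.16, limma adjusted p = 0.00342). With the floor raised to the pooled 50th percentile, which lifts its uninjured values to the floor, it no longer passed (adjusted p = 0.0966).

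Slc2a1, the glucose carrier GLUT1 of brain endothelium and glia, was read by 2 probe sets, and both were lower after contusion on every array. The S68135_s_at probe set gave 225, 261 and 414 after contusion against 545, 506 and 588 in uninjured cord. Contused array 3 was the highest of its group yet below all uninjured arrays (log2 change -0.91, SE 0.21, adjusted p = 0.0129). The M13979_at probe set gave 389.5, 427 and 389 against 478, 602 and 527, a log2 change of -0.41 (SE 0.14) that did not pass (adjusted p = 0.066). The call of the former was lost without contused array 1 (adjusted p = 0.0527), contused array 2 (0.0612) or uninjured array 3 (0.0606). The summed endothelial marker signal was also lower on all 3 contused arrays, as given above, and its part in the fall of Slc2a1 was not tested.

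Slc37a1, an exchanger of glucose 6-phosphate and phosphate, fell from 712, 643 and 688 in uninjured cord to 486, 429.9 and 457 after contusion. The groups were well apart (log2 change -0.57, SE 0.12, adjusted p = 0.01), but without uninjured array 3 the adjusted p was 0.0512. Its relative Slc37a4, which brings glucose 6-phosphate into the endoplasmic reticulum, had log2 changes of 0.13 and 0.14 on its 2 probe sets (adjusted p = 0.602 for both). Falls of sugar carriers numbered 1 without contused array 1 or 2 and 0 without uninjured array 3. The other sugar carriers did not pass. Slc2a4, the insulin-responsive GLUT4, had log2 changes of 0.17 and -0.23 on its 2 probe sets (adjusted p = 0.559 and 0.279). Slc2a3, the glucose carrier GLUT3 of neurons, gave 153 ± 6.01 after contusion and 142 ± 8.62 in uninjured cord (SD, n = 3), with a 95% interval of the log2 change from -0.20 to 0.40. Slc2a5, the fructose carrier GLUT5 that microglia express in brain, gave 235, 230.4 and 234 against 176, 177 and 196. These groups do not overlap, and its 2 probe sets had log2 changes of 0.35 and 0.36, but neither passed (adjusted p = 0.106 and 0.16). Slc5a6, the multivitamin carrier and among the brightest of this group, varied as much within groups as between them (366 ± 87.9 against 325 ± 93.7). Of 6 tested enzymes of glucose and lactate metabolism, 0 were higher and 2 lower at their brightest probe set: the phosphofructokinase genes Pfkm (925 ± 104 against 1291 ± 70) and Pfkp (533 ± 71.1 against 865 ± 19.2). Of the 5 dimmer probe sets of these enzymes, 1 was higher and 2 lower. That of the hexokinase gene Hk2 rose from 69.4 ± 3.99 to 138 ± 18.5 (log2 change 0.99, adjusted p = 0.000913), while its brighter one did not pass (log2 change 0.38, adjusted p = 0.0795). That of the lactate dehydrogenase gene Ldhb fell from 2050.1 ± 125 to 1566 ± 156 (log2 change -0.39, adjusted p = 0.0444), while its brighter one did not pass (log2 change -0.28, adjusted p = 0.118), and the second of Pfkm fell from 248 ± 7.1 to 170.5 ± 33.4 (log2 change -0.56, adjusted p = 0.0463).

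Of 12 tested probe sets for amino acid and peptide carriers (9 genes of Slc3, Slc7 and Slc15), 1 was higher and 1 lower. Together these are 16.7%, against 17.4% over all probe sets tested. Slc7a1 encodes CAT-1, the carrier of arginine and lysine. Its U70476_at probe set gave 124, 135 and 127 after contusion and 207, 252 and 210.5 in uninjured cord. The fall, 1.73-fold, was tight within groups (log2 change -0.79, SE 0.14, adjusted p = 0.00412) and kept its call under all 14 alternatives. The 2 other probe sets of the gene did not show it, with log2 changes of 0.20 (adjusted p = 0.459) and -0.13 (adjusted p = 0.7).

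Slc15a2, the peptide carrier PEPT2 of astrocytes and choroid plexus, read 276, 268 and 326 after contusion against 193, 223 and 205. The contused arrays were all higher (log2 change 0.49, SE 0.14, adjusted p = 0.0433). This call was lost without any 1 of the 6 arrays, with adjusted p-values of 0.073 (contused array 1), 0.0819 (contused array 2), 0.0967 (contused array 3), 0.129 (uninjured array 1), 0.0533 (uninjured array 2) and 0.134 (uninjured array 3). Slc15a4, a lysosomal carrier of histidine and peptides in immune cells, gave 149, 157 and 158 against 116, 124 and 124. Its groups do not overlap, and it did not pass (log2 change 0.35, adjusted p = 0.0957), except with the floor at the 50th percentile (adjusted p = 0.0255). Signals of the microglia and macrophage list rose in the same samples, and their part in these values was not tested.

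The heavy chain and its main light chain in brain did not pass. Slc3a2, the glycoprotein CD98hc that carries light chains of the Slc7 family to the surface, had 2 probe sets. The dimmer gave 627, 732 and 643 after contusion against 417, 579 and 460.1 (log2 change 0.47, adjusted p = 0.059) and the brighter 835, 1034 and 702 against 636, 797 and 669 (0.28, adjusted p = 0.286). The dimmer one passed without uninjured array 2 (adjusted p = 0.0273), with quantile normalization (0.0147) and with scaling to a common trimmed mean (0.028). Slc7a5, the light chain LAT1, gave 514 ± 65.7 against 568 ± 70.5, with a 95% interval of its log2 change from -0.48 to 0.19. Slc15a1, the intestinal peptide carrier, gave 376 ± 98.9 against 429.5 ± 75.2 on its brighter probe set, while a second one lay at or under the floor on 4 of 6 arrays.

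Of 11 tested probe sets for carboxylate, fatty acid and bile acid carriers (10 genes of Slc10, Slc13, Slc16 and Slc27), 2 were higher and 0 lower. That share of 18.2% compares with 17.4% called over all probe sets tested. Both rises belong to Slc16a1. This gene encodes MCT1, the lactate, pyruvate and ketone body carrier of oligodendrocytes, astrocytes and endothelium. Its brighter probe set read 836, 749.7 and 687 after contusion and 499, 620.0 and 462 in uninjured cord. The other read 614, 590.0 and 582 against 384, 478 and 410.4. In both, every contused array exceeded every uninjured array, with log2 changes of 0.53 (SE 0.15, adjusted p = 0.0331) and 0.50 (SE 0.13, adjusted p = 0.0274). Both calls were lost without contused array 1 (adjusted p = 0.109 and 0.072), contused array 2 (0.0946 and 0.0828), uninjured array 1 (0.102 and 0.101) or uninjured array 3 (0.147 and 0.108), in the order brighter and dimmer. The count of risen probe sets in this group was then 0 in each case.

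No other Slc16 member passed. Slc16a3 (MCT4, the lactate exporter of glycolytic cells) gave 85.5 ± 15.7 against 83.5 ± 12.2, with a 95% interval of -0.34 to 0.39 for its log2 change. Slc16a12, a carrier of creatine, gave 120.1, 114 and 108 against 96.5, 97.3 and 103 (log2 change 0.21, adjusted p = 0.31), and Slc16a6 and Slc16a8 had log2 changes of -0.07 and 0.05. Slc16a7, the neuronal lactate carrier MCT2, lay at or under the floor on all 6 arrays and was not tested. Neither of the chaperones that bring Slc16 carriers to the surface passed: Bsg gave 1399 ± 91.7 against 1684 ± 144 (log2 change -0.27, adjusted p = 0.154) and Emb, at its brighter probe set, 216 ± 38.3 against 213 ± 3.32. The brightest members of this group besides Slc16a1 were Slc27a1, a fatty acid transport protein (426 ± 44.2 against 455 ± 59.1), and Slc10a2, the ileal bile acid carrier (246 ± 14 against 228 ± 41.6). Slc27a2, another fatty acid transport protein, gave 128, 102 and 115 against 134, 146 and 155, groups that do not overlap, without passing (log2 change -0.34, adjusted p = 0.144). A second Slc10a2 probe set lay at or under the floor on every array.

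Of the Slc25 family, which had the most tested probe sets, 5 of 16 (5 of 12 genes) were lower and 0 higher, which is 31.2% where 9.59% of all probe sets were lower. The other 11 did not pass. Smaller families had as large a share of calls in either direction, such as 2 of 6 in Slc16 and 1 of 3 in Slc15 and Slc37 (33.3% each) and 1 of 2 in Slc24 (50%). The median log2 change of its probe sets was -0.20. The upstream windows of the 5 genes with a fall are shown so that their letters can be compared; each is the 250 bases before the start of the gene in RefSeq's promoter table for the GRCr8 build, 5′ to 3′ on the gene's strand. Capitals mark CCAAT boxes (letters CCAAT), GC boxes (GGGCGG) and E-boxes (CACGTG), searched on both strands, so that a box on the opposite strand reads ATTGG or CCGCCC, and the window of Slc16a1 is added as that of the carrier that rose on both of its probe sets.
Slc25a1, chr11:96559804-96560053, + strand: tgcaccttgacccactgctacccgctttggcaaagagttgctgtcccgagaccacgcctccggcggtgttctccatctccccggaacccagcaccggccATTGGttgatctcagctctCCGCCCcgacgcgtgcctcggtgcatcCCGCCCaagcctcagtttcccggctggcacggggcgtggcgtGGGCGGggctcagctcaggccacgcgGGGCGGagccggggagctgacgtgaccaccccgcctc
Slc25a3, chr7:27506628-27506877, - strand: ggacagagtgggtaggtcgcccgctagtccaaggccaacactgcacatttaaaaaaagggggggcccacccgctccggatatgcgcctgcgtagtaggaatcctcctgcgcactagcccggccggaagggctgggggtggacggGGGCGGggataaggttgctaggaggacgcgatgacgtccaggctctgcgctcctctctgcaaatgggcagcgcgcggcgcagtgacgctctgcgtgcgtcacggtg
Slc25a14, chrX:132685359-132685608, + strand: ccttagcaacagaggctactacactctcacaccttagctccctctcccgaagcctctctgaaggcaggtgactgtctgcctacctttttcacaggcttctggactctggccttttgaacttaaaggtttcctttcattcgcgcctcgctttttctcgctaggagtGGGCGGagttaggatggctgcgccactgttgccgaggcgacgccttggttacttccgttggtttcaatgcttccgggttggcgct
Slc25a17, chr7:114767164-114767413, - strand: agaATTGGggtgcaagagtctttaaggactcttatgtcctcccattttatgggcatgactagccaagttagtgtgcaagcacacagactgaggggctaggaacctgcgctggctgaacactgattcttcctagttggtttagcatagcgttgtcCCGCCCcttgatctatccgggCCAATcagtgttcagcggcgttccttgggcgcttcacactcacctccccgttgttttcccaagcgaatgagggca
Slc25a23, chr9:1985366-1985615, - strand: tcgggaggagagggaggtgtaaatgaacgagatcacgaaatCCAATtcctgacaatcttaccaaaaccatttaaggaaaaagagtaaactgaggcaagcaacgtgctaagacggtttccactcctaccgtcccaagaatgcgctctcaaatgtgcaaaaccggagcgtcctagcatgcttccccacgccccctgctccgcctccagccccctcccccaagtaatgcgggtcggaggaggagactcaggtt
Slc16a1, chr2:194812410-194812659, + strand: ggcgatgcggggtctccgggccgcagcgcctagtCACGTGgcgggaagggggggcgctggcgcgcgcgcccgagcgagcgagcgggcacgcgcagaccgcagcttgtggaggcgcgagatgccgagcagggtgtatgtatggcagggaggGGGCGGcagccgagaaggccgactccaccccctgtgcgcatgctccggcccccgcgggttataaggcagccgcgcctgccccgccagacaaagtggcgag
A GC box was found in 4 of the 5 fallen Slc25 genes, in all but Slc25a23, and a CCAAT box in 3 of 5. Across all 12 Slc25 members, 10 had a window in the table, and 8 of these held a GC box and 6 a CCAAT box. Over the 75 carriers with a window, 36 (48%) held a GC box, 32 (42.7%) a CCAAT box and 9 (12%) an E-box. Of 33469 windows of the same length in the whole table, 30.5% held a GC box, 34% a CCAAT box and 5.59% an E-box. These are counts of table entries, not limited to genes on the array, while carriers were counted by gene. The shares are therefore not a like comparison, and enrichment was not tested. None of the 10 Slc25 windows held an E-box, and Slc16a1 was the only 1 of the 14 carriers with a call to hold it. No motif here overlaps another, and a match describes letters only.

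The clearest fall was that of Slc25a1, the carrier that exports citrate for fatty acid and sterol synthesis. It gave 335, 357 and 341 after contusion and 577, 665 and 563 in uninjured cord, with a wide gap between the groups. The fall of 1.74-fold (log2 change -0.80, SE 0.13, adjusted p = 0.00202) kept its call under all 14 alternatives. Slc25a3, the phosphate carrier that feeds ATP synthase, gave 1150.1, 1039.6 and 1121 against 1415, 1523 and 1529.8 (log2 change -0.43, SE 0.11, adjusted p = 0.022). Its groups were separate by a margin larger than the spread within either, yet the call was lost without contused array 2 (adjusted p = 0.0761), uninjured array 2 (0.0695) or uninjured array 3 (0.107), and with quantile normalization (0.0534).

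The other 3 falls were near the threshold. Slc25a17 is a peroxisomal carrier of coenzyme A and nucleotides, so its protein does not sit in mitochondria as the rest do. It gave 367, 374 and 461 after contusion against 541, 559 and 538 (log2 change -0.45, SE 0.14, adjusted p = 0.0458). Slc25a23, a calcium-regulated carrier of ATP-magnesium and phosphate, gave 114, 110.4 and 148 against 168, 187 and 170.4 (log2 change -0.51, SE 0.16, adjusted p = 0.0484). In both genes contused array 3 was nearest to the uninjured arrays. Slc25a14, an uncoupling protein relative of brain, gave 97.7, 129 and 97.1 against 174, 148 and 154 on its dimmer probe set (log2 change -0.57, SE 0.16, adjusted p = 0.0334). Its brighter probe set gave 399, 400.0 and 349 against 458, 311 and 338 (log2 change 0.07, adjusted p = 0.825), so that the gene's readings disagree. Without contused array 1 the adjusted p was 0.122 for Slc25a17, 0.137 for Slc25a23 and 0.111 for Slc25a14. Without contused array 2 the former pair gave 0.15 and 0.174, and without contused array 3 Slc25a14 gave 0.0878. Without uninjured array 1 the values of Slc25a17, Slc25a23 and Slc25a14 were, in this order, 0.105, 0.088 and 0.105, without uninjured array 2 0.108, 0.132 and 0.0575, and without uninjured array 3 0.128, 0.127 and 0.0942. Slc25a17 was also lost with no floor (0.0511), quantile normalization (0.0739) or scaling (0.0584), Slc25a23 with scaling (0.0615) or no filter on dim probe sets (0.0688), and Slc25a14 with no filter (0.0528). The count of fallen Slc25 probe sets was 2 without contused array 1, contused array 2 or uninjured array 1, and 1 without uninjured array 2 or 3. It was 3 with quantile normalization, scaling to a common trimmed mean or no filter on dim probe sets.

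**Figure D3:**
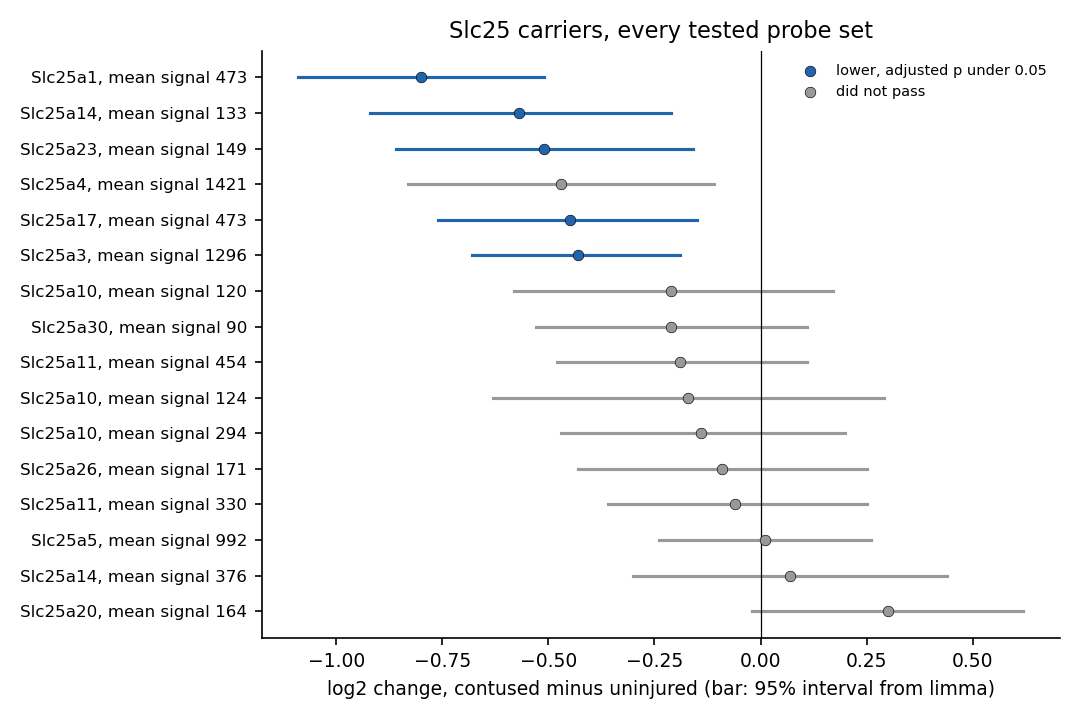
Log2 change (contused minus uninjured) of all 16 tested Slc25 probe sets with the 95% interval from limma as a bar, ordered by the change. The 5 blue points passed, Slc25a4 lies among them in grey, and Slc25a5 lies at 0.01.

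The adenine nucleotide carriers, which exchange ATP for ADP, were among the brightest Slc25 members. Slc25a4 (ANT1, the form of heart, muscle and brain) gave 1030.1, 1042 and 1535 after contusion against 1794, 1559.8 and 1564. Contused array 3 lay just under the uninjured arrays and far above the other contused ones, and the gene did not pass (log2 change -0.47, SE 0.16, adjusted p = 0.0733). Without contused array 3 it passed (adjusted p = 0.0055). Slc25a5 (ANT2, the form of dividing cells) gave 945, 987 and 1058 against 1001, 1002 and 961, with a log2 change of 0.01 and a 95% interval from -0.24 to 0.26. The difference between the changes of both genes, taken within each array, was -0.48 (SE 0.16), and the arrays of the groups do not overlap in it. Its exact permutation p of 0.1, the smallest that 3 against 3 arrays allow, was 0.15 after adjustment over 6 pairs. The pair was not set in advance, so this p-value gives no independent evidence that the genes differ.

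Slc25a20, which carries acylcarnitines into mitochondria for fatty acid oxidation, was the only tested Slc25 gene with higher values on all contused arrays: 170.4, 172 and 202 against 139, 147 and 156. It did not pass (log2 change 0.30, adjusted p = 0.19), and none of the 3 tested genes of the carnitine shuttle did (Cpt1a, Cpt1b and Cpt2, log2 changes of -0.06, 0.03 and 0.10). Slc25a10 and Slc25a11, the dicarboxylate and oxoglutarate carriers, had log2 changes from -0.21 to -0.06 over 5 probe sets, and Slc25a26 and Slc25a30 had -0.09 and -0.21; none of these passed. Of the ATP synthase and porin genes, 0 of 3 tested passed: Atp5f1a gave 1159 ± 50.7 against 1377 ± 11, Atp5f1b 1984 ± 153 against 2253 ± 57.9 and Vdac1 272 ± 44.7 against 329.6 ± 7.41. Neuron markers fell to below their uninjured range in the same samples (sums above), and their part in the falls of Slc25 genes was not tested.

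Of 11 tested probe sets for exchangers of calcium, protons and anions (7 genes of Slc8, Slc9, Slc24 and Slc26), 0 were higher and 2 lower. That share of 18.2% compares with 17.4% called over all probe sets tested. Slc8a3, the sodium-calcium exchanger NCX3 of neurons and muscle, gave 74, 60 and 75.3 after contusion against 95.4, 97.4 and 112. It was dim, with contused array 2 under the floor (log2 change -0.54, SE 0.13, adjusted p = 0.0186). The adjusted p was 0.0863 without contused array 2 and 0.0869 without uninjured array 3. Slc24a2, the neuronal potassium-dependent sodium-calcium exchanger NCKX2, gave 52.6, 55.2 and 99.3 against 101, 119 and 146 on its AF021923_at probe set (log2 change -0.74, SE 0.21, adjusted p = 0.0314). Contused arrays 1 and 2 lay under the floor, while contused array 3 was next to the lowest uninjured value. The call was lost without contused array 1 or 2 (adjusted p = 0.13 each), uninjured array 2 (0.0876) or uninjured array 3 (0.129), or without the filter on dim probe sets (0.0619). Its second probe set gave 89 ± 3.7 against 97.6 ± 8.14 without passing. The count of this group was 0 without contused array 2 or uninjured array 3, and 1 without contused array 1 or uninjured array 2.

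The other sodium-calcium exchangers did not pass. Slc8a2 (NCX2) gave 303, 259.9 and 263 after contusion against 203, 154 and 244 (log2 change 0.48, adjusted p = 0.1), groups that do not overlap. Slc8a1 (NCX1) had log2 changes of 0.42, 0.29, 0.27 and -0.18 on 4 tested probe sets, the dimmest of which was under the floor on all uninjured arrays, and none passed (adjusted p from 0.0658 to 0.57). The dimmest passed with no floor (adjusted p = 0.046) and the one at 0.42 with scaling to a common trimmed mean (0.0482). Of 6 tested calcium pump genes, 0 were higher and 2 lower at their brightest probe set. These were Atp2b2 (174 ± 14.4 against 405 ± 63.8) and Atp2b3 (105 ± 16.1 against 230.1 ± 39.7), pumps of the neuronal plasma membrane. Of 7 dimmer probe sets of these genes, 0 were higher and 4 lower: 2 of Atp2b2, 1 of Atp2b3 and 1 of Atp2a2, a pump of the endoplasmic reticulum (453 ± 29.5 against 840.1 ± 149, log2 change -0.88, adjusted p = 0.00338). The 3 other dimmer probe sets did not pass, at log2 changes of 0.31 and 0.33 in Atp2a2 and 0.21 in Atp2b3. The brightest probe set of Atp2a2 did not pass (836 ± 12.6 against 1083 ± 86.4, log2 change -0.37, adjusted p = 0.0551). Neuron markers fell in these samples, and their part in these falls was not tested. Slc9a2, a sodium-proton exchanger, gave 111 ± 12.4 against 98.2 ± 9.39 (adjusted p = 0.462), and Slc9a3 and Slc9a4 lay at or under the floor on all arrays. The sulfate carrier genes Slc26a1 and Slc26a2 had log2 changes of -0.01 and 0.13.

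Of 9 tested probe sets for carriers of metals and phosphate (6 genes), 1 was higher and 0 lower (11.1%, against 17.4% called over all probe sets tested). The risen probe set is annotated to Slc34a1, the sodium-phosphate carrier of kidney tubules. It gave 1597, 1613 and 1412 after contusion against 1001, 956 and 1057. The groups are far apart (log2 change 0.62, SE 0.12, adjusted p = 0.0047), and the call held under all 14 alternatives. This probe set (rc_AA891726_s_at) was the brightest of the gene by far. The other 3 tested probe sets of Slc34a1 averaged 57.5, 157 and 270.1 over the 6 arrays and had log2 changes of 0.06, -0.10 and 0.15 (adjusted p = 0.707, 0.715 and 0.579). The fifth was above the floor on 2 contused arrays only. Whether the bright probe set reads Slc34a1 was not tested.

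Slc20a2 (PiT-2), a widely expressed phosphate importer, gave 255, 301 and 248 after contusion against 181, 220.1 and 159. All contused values were higher, and at a log2 change of 0.53 (SE 0.16) its adjusted p of 0.05 lay just outside the threshold. It passed under 8 of 14 alternatives, with adjusted p-values from 0.0286 to 0.2 over all of them. It passed without uninjured array 2 (0.032) and with none of the other 5 arrays left out. Slc30a1, the zinc exporter of the cell membrane, gave 85.4, 77.4 and 73.1 against 64.5, 64.2 and 55, groups that do not overlap (log2 change 0.31, adjusted p = 0.0801). It passed without contused array 3 (adjusted p = 0.0497) and without the filter on dim probe sets (0.0361). Rises in this group numbered 2 without contused array 3 (Slc34a1 and Slc30a1) or uninjured array 2 (Slc34a1 and Slc20a2). Slc40a1, the iron exporter ferroportin, gave 71.9 ± 19.2 against 82.9 ± 2.7 (95% interval of the log2 change -0.45 to 0.17) on a probe set close to the floor. The magnesium carrier genes Slc41a2 and Slc41a3 had log2 changes of -0.28 and -0.13 (adjusted p = 0.177 and 0.73). Slc30a2 and Slc30a4 had no tested probe set. Of 3 tested genes for binding or uptake of these metals, 1 was higher and 1 lower. Ceruloplasmin (Cp), the copper enzyme that oxidises iron on its way out through ferroportin, rose from 114 ± 5.1 to 486 ± 59.2. The transferrin receptor gene Tfrc fell from 118 ± 14.7 to 71.3 ± 26 (limma adjusted p = 0.0346). Tfrc was dim, at 50.8, 62.5 and 101 after contusion, with contused array 1 under the floor. The metallothionein gene Mt3 gave 1922 ± 264 against 1997 ± 131.

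The vesicular glutamate family Slc17 had 2 tested probe sets, of which 0 passed in limma (0 at an unadjusted p of 0.05). Over all probe sets tested, 17.4% passed. Slc17a7, which fills vesicles of corticospinal and sensory endings with glutamate (VGLUT1), gave 136, 109 and 113 after contusion against 184, 120.3 and 158. The values overlap and the 95% interval of the log2 change ran from -0.75 to 0.05 (estimate -0.35, adjusted p = 0.224). Slc17a1, a renal phosphate and urate carrier of the same family, gave 100.1 ± 14 against 93.8 ± 9.29.

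The remaining 9 families carry organic ions, nucleosides, urea, vitamins, choline and nucleotide sugars. In these, 0 of 24 tested probe sets (20 genes) passed in limma, against 17.4% over all probe sets tested. Of the 24, 1 had an unadjusted p under 0.05. That was Slc22a18, an organic cation carrier of an imprinted region (126, 91.4 and 95.9 after contusion against 80.2, 78.6 and 78.8; log2 change 0.38, adjusted p = 0.0992). On 3 of the 24 (12.5%) the groups do not overlap, with the contused arrays higher on each. Over all probe sets tested the groups did not overlap on 34.8%, and the contused arrays lay above on 16.6%. Without contused array 3, 1 probe set of these families was higher, that of Slc22a13, an organic anion carrier (log2 change 0.39, adjusted p = 0.0398). Log2 changes in these families ran from -0.32 to 0.44. The brightest was Slc14a2, a urea carrier best known from kidney (626 ± 80.1 against 518 ± 90.2), followed by Slc44a4, a relative of choline carriers (522 ± 66 against 449.5 ± 56.2), and the organic cation carrier Slc22a3 (479 ± 31.5 against 437 ± 82.1). A second probe set of Slc14a2 averaged 14.9 and 9.21, and a second one of Slc22a3 14.1 and 8.97, all under the floor. The organic anion carrier Slc22a6 gave 407, 364 and 401 against 358, 300.4 and 343 (log2 change 0.23, adjusted p = 0.293). Of 6 genes of the related Slco group, 2 were tested and neither passed; Slco1a4, an organic anion carrier of the barrier endothelium, gave 424 ± 12.9 against 433 ± 21.

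Several genes were read by more than 1 probe set, and these did not always agree. Of 19 carriers with several tested probe sets, 5 differed in call (Slc2a1, Slc7a1, Slc24a2, Slc25a14 and Slc34a1), none had calls in opposite directions, and 5 had changes of both signs. In Slc16a1 alone did each of several probe sets pass. For each of the 5, the passing probe set was compared within arrays with the brightest that did not pass. These pairs were picked because their calls differ on the same arrays, which favours large differences. Their p-values therefore give no independent evidence that the probe sets disagree. The difference of log2 changes was -0.99 (SE 0.26) in Slc7a1, -0.64 (SE 0.15) in Slc25a14, 0.47 (SE 0.16) in Slc34a1, -0.61 (SE 0.31) in Slc24a2 and -0.50 (SE 0.32) in Slc2a1. The groups of arrays do not overlap in the former 3 (exact permutation p = 0.1, the smallest possible, and 0.15 adjusted over 6 pairs with Slc25a4 and Slc25a5) and overlap in Slc24a2 and Slc2a1 (p = 0.2, adjusted 0.2). Probe sets whose name ends in _s_at can match several transcripts, and what each probe set covers was not tested.

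**Figure D4:**
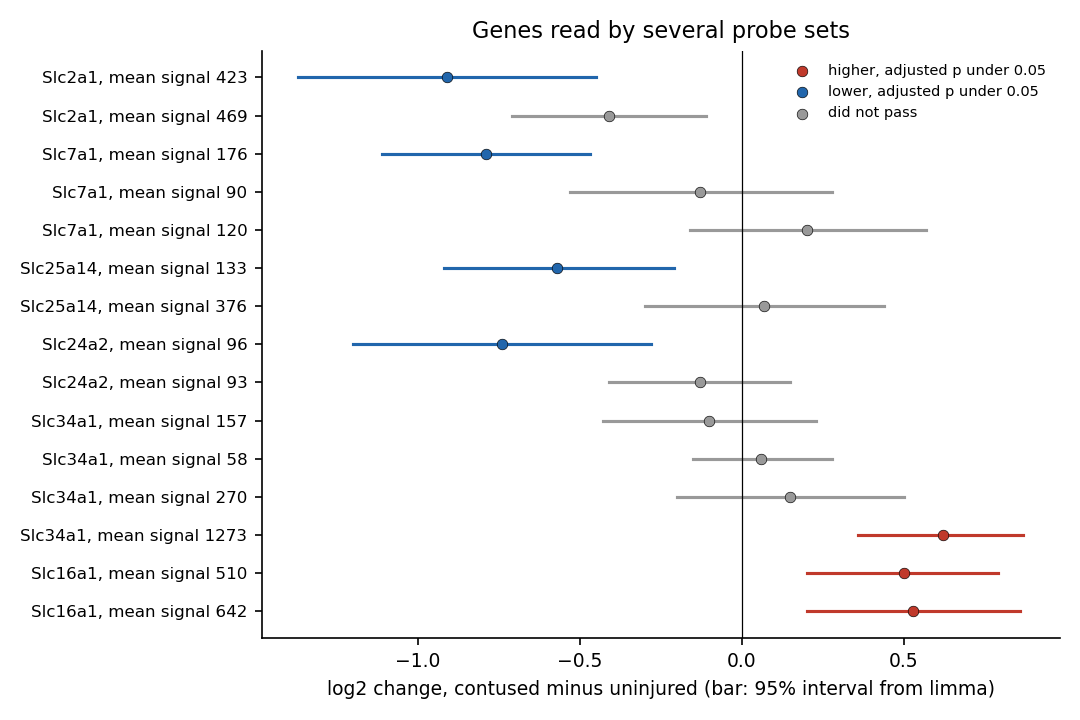
Log2 change (contused minus uninjured) with its 95% interval from limma for every tested probe set of the 5 genes whose probe sets differ in call and of Slc16a1, each with its mean signal over the 6 arrays. Both Slc16a1 points are red at 0.50 and 0.53, while each other gene joins 1 coloured point to grey ones nearer to 0.

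The firmest calls were few. Of the 15 probe sets that passed, 3 did so under every alternative, those of Slc25a1, Slc7a1 and Slc34a1. When any 1 array was left out 4 passed, these and Slc5a3. The alternatives vary arrays and processing only, and the other tested probe sets of Slc7a1 and Slc34a1 did not pass. The direction of the change was the same for all 15 in every alternative that tested them. Of 20 probe sets that were not tested, 15 lay at or under the floor on all 6 arrays, and 9 genes had no tested probe set: Slc2a2, Slc9a3, Slc9a4, Slc10a1, Slc13a1, Slc16a7, Slc22a25, Slc30a2 and Slc30a4.

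**Figure D5:**
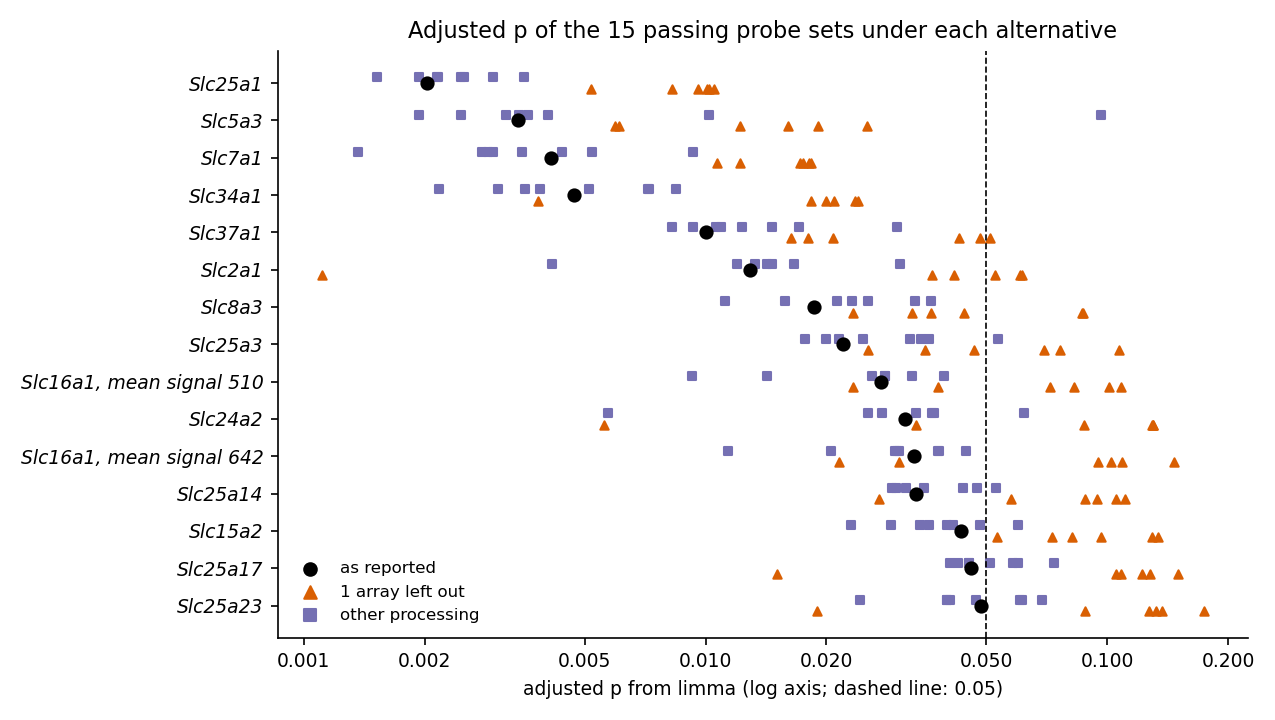
Adjusted p (log axis) of the 15 passing probe sets as reported (black), with 1 array left out (orange triangles) and under other processing (purple squares), with 0.05 as a dashed line. All marks of Slc25a1, Slc7a1 and Slc34a1 lie left of the line, and those of the lower rows straddle it.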

How the data were processed

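Total RNA of 6 rat spinal cord samples was measured on one-colour oligonucleotide arrays. The authors' deposited table gives 1 intensity per probe set and array taken to be linear because of the size of its values, with 21 to 32 below 0 per array. Its summarisation, background correction and scaling are not given in the sources used here. It held 0 columns of other samples. The trimmed means (2% at each end) of the arrays differed by at most 9.03%, and no scaling was added.

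Of 8799 probe sets, 59 controls were left out. Annotation named 1 gene for 7006 of the remaining 8740, several for 308 and none for 1426. Symbols are those of the array's annotation; all 122 carrier probe sets matched RefSeq genes (GRCr8) by gene identifier and 0 symbols changed. 2 probe sets that name a carrier beside a further gene or gene identifier were left out. Values under the pooled 25th percentile (61.6, or 5.94 on the log2 scale) were set to it, which understates changes of dim genes. Probe sets above it on at least 3 of 6 arrays entered a limma fit (version 3.58.1, R 4.3.3; linear model per probe set with variances moderated along the mean signal, 4 residual degrees of freedom, two-sided), with Benjamini-Hochberg adjustment over 6705 probe sets at 0.05. Errors of signals are SDs over 3 arrays, those of log2 changes SEs from limma, except differences between probe sets, whose SEs come from the arrays. Whether arrays come from separate animals is not stated, and p-values cover only the spread among them, which may be technical. Array number limits precision. The procedure was tested on simulated data. The changes built into these data were larger than that of any carrier that passed. Detection of changes as small as those of the carriers was not tested.

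The carriers, the role groups, the marker and partner lists were chosen with earlier results of these data known. Named are all carriers past the threshold and the 3 brightest of each role group; carriers named besides these, and the partner genes given at a dimmer probe set, were chosen after their values were seen. Alternatives were a floor at the 50th percentile, no floor, no filter, quantile normalization, scaling to a common trimmed mean, the replicate number as a block, no intensity trend, 1 probe set per gene and leaving out each array. Promoter windows are from RefSeq. Plots used Python 3.11.15, pandas 2.3.3 and matplotlib 3.10.9.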

Additional observations from a re-analysis of the deposited data

How the results depend on the processing

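Counts over 3 against 3 arrays limit what can be seen here, and most calls of single carriers lay close to the threshold. Higher carrier probe sets numbered 8 with scaling to a common trimmed mean, and leaving out 1 array gave 2 to 6 higher and 2 to 10 lower; over all probe sets leaving out 1 array gave 276 to 484 higher and 383 to 776 lower. With 1 probe set per gene the counts over the whole array were 292 and 423, those of sugar carriers lower 1 and of carboxylate carriers higher 1, a smaller table by construction. The median log2 change of the carriers was 0.04 with quantile normalization, 0.10 with scaling to a trimmed mean, where the median of all probe sets was 0.04, 0.07 with 1 probe set per gene and 0.03 to 0.07 with 1 array left out. Raising the floor to the 50th percentile left sugar carriers with 0 higher, amino acid carriers with 2 higher, the exchangers with 0 lower and metal and phosphate carriers with 2 higher. Slc25 carriers lower numbered 3 without the filter, with quantile normalization, scaling or the replicate block. Exchangers numbered 1 higher with no floor or scaling, and 1 lower without the filter. Amino acid carriers numbered 2 higher with quantile normalization or scaling. Metal and phosphate carriers numbered 2 higher under every alternative that leaves out no array. Leaving out 1 array gave sugar carriers 1 higher and 0 to 2 lower, amino acid carriers 0 to 1 higher, carboxylate carriers 0 to 2 higher, Slc25 carriers 1 to 5 lower, exchangers 0 to 2 lower, metal carriers 1 to 2 higher and the remaining families 0 to 1 higher. Signs were followed only for carriers that passed and for the 3 brightest of each role group. Among the latter that did not pass, leaving out 1 array turned the sign of 5: Slc5a6 (log2 changes of -0.08 without uninjured array 3 to 0.40), Slc25a5 (-0.03 without contused array 3, -0.01 without uninjured array 3, up to 0.05), Slc41a3 (-0.31 to 0.07, the latter without uninjured array 1), Slc17a1 (-0.02 without contused array 1, up to 0.16) and Slc22a3 (-0.02 without uninjured array 2, up to 0.24). The cause of these shifts was not tested. The replicate block gave 6 higher and 8 lower carrier probe sets, and 535 higher and 665 lower probe sets in all. Under it Slc15a2 (adjusted p = 0.0601), Slc25a17 (0.0601) and Slc25a23 (0.0606) no longer passed, and Slc3a2 (0.0407) and Slc20a2 (0.0369) did. Deviations of same-numbered arrays from their group means correlated at 0.0415, 0.222 and -0.244, and those of differently numbered arrays at -0.267 to 0.267. With 3 arrays per group these values cannot tell whether same-numbered arrays are related, and the labels do not say.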
